A study of Homo sapiens with 35 samples.

Results

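The peaks described here are the open-chromatin peaks nearest to the long-arm ends of human chromosomes 1 to 22. A peak was included when its summit, the base with the highest signal, lay within 500 kb of the end of the GRCh38 chromosome on the long arm. By that rule 1538 of 301177 autosomal peaks were included (0.511%), out of 308732 in the whole deposited list, and every chromosome contributed between 11 and 164 of them. The interval next to it, the following 5 Mb toward the centromere, held 16688 peaks, and the first 500 kb of the short arms held 1322.

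The libraries were made by ATAC-seq, a method that cuts and tags open DNA with a transposase, from hematopoietic progenitor cells derived from the established human embryonic stem cell line H1. The labels list 35 libraries in 18 groups of 1 to 3, collected at 6 time points from day 10 to day 20, while the design text counts 44. A derivative line called doxee17 gave 12 libraries with doxycycline, which turns on ectopic MYC, and 11 untreated libraries (batch 1), and untreated H1 cultures gave 12 libraries (batch 2). The labels give H1 as the cell line of both, and the promoter that drives MYC is not given in the sources used here. The data are a single peak list in which the libraries are merged. Doxycycline treatment, day and line were therefore not compared, and no value below has a replicate error. The depth of the libraries is unknown from the list.

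The labelled cell type was checked on marker genes. Of 10 blood progenitor genes (CD34, PTPRC, SPN, RUNX1, GATA2, TAL1, SPI1, MYB, KIT and LMO2), 10 had a peak at or over a gene end, with fold enrichments from 14.8 to 118 and a median of 70.4. Endothelial markers had one at 3 of 3 genes (10.1 to 33.4), pluripotency markers at 3 of 3 (1.93 to 17.6), mesenchymal markers at 1 of 3 (60.6, at COL1A1) and liver markers at 0 of 2. On all autosomes 83.7% of coding genes had a summit at most 1 kb from an end, and the median highest fold was 46.9. The marker counts also took peaks that cover an end, a looser rule, so by themselves they say little about cell type. The part of cells other than blood progenitors in the results below was not tested.

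The subtelomere is the stretch of chromosome just inside the telomere, which is built from repeats of TTAGGG. It is often rich in genes, and its outermost blocks are patchworks of sequence shared between many chromosome ends, so short reads cannot always be assigned to 1 end. Telomere-directed transcripts start in these blocks, and the ends of chromosomes 4 and 10 carry D4Z4 repeats with copies of DUX4, an embryonic transcription factor gene whose activity in muscle underlies facioscapulohumeral dystrophy. Zinc finger genes, many of which encode repressors that act with TRIM28, also lie in clusters near several chromosome ends.

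The promoter sequences below belong to the strongest peaks of the interval whose summit lay in the RefSeq promoter window, 1 per chromosome. They are shown because peaks of this kind, at the starts of zinc finger and other widely used genes, were the strongest near the chromosome ends. Each is the 250 bases before the gene's RefSeq start on GRCh38.p14, 5′ to 3′ on the gene's strand. Capitals mark matches on either strand to 4 motifs, the E-box CACGTG, the ETS motif CCGGAAG, the GC box GGGCGG and the CCAAT box CCAAT; overlapping matches were merged. They come from chr1:248837974-248838223 (plus strand) for ZNF672, chr22:50582850-50583099 (minus) for CHKB, chr19:58278705-58278954 (plus) for ZNF8, chr12:132887606-132887855 (minus) for CHFR, chr18:80034184-80034433 (plus) for RBFA and chr4:189940622-189940871 (plus) for FRG1.

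ZNF672: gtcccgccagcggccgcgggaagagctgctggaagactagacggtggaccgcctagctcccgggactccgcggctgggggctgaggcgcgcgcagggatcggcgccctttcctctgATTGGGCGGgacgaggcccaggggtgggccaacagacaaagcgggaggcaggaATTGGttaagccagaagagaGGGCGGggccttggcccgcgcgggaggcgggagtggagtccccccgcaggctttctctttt

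CHKB: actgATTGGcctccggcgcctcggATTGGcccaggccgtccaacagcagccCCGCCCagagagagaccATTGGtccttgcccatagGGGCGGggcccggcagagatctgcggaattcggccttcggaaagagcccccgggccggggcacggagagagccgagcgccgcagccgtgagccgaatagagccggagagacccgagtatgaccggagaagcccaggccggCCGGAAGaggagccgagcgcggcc

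ZNF8: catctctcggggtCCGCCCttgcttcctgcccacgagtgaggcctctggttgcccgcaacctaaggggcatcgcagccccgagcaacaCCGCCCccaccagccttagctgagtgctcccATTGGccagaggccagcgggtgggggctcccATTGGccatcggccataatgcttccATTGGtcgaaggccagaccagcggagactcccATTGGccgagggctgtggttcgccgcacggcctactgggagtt

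CHFR: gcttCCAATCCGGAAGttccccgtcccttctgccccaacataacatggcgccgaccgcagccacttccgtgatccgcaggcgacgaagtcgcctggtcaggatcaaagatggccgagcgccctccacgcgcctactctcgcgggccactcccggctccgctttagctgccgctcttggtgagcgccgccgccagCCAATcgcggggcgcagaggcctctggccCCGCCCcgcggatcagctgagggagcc

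RBFA: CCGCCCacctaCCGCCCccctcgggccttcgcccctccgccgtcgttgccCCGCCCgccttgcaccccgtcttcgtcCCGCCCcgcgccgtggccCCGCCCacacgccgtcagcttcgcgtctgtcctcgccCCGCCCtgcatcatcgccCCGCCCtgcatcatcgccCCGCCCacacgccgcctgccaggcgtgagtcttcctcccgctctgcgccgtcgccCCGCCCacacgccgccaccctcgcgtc

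FRG1: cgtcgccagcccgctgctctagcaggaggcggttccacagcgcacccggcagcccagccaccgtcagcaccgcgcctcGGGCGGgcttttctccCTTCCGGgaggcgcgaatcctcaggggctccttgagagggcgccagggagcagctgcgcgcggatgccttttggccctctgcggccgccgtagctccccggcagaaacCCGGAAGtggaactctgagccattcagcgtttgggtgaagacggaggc

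ZNF672 and ZNF8 encode zinc finger proteins, CHKB a choline kinase, CHFR a mitotic checkpoint ubiquitin ligase, RBFA a ribosome-binding factor of mitochondria, and FRG1 a protein named for its place in the facioscapulohumeral dystrophy region. Their peaks had fold enrichments of 248 (ZNF672), 240 (CHKB), 237 (ZNF8), 199 (CHFR, RBFA) and 194 (FRG1), where fold enrichment is the authors' linear ratio of the signal at the summit to the caller's background. The summits lay 24 bp (ZNF672) to 226 bp (RBFA) before the start. The 6 sequences had GC contents from 65.6% to 77.6% and 15 to 38 CpG pairs. RBFA held 9 GC boxes and no other marked motif, ZNF8 held 4 CCAAT boxes, FRG1 held 2 ETS matches, and none of the 6 held the E-box that MYC and related factors bind. A match is a description of the letters and not a measured binding site.

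Among coding-gene promoters of 300 bases (250 before to 50 after the start), the ETS letters were present in 23.4% of 171 promoters of the last 500 kb, in 15.4% of 1327 of the next 5 Mb and in 12.9% of 21156 on all autosomes. The E-box was present in 12.3%, 8.67% and 8.25% in the same order, and the CCAAT box in 39.2%, 30.7% and 34.4%. For the GC box the shares were 63.7%, 65.4% and 56.6%. The blood motif AGATAA was present in 4.09%, 5.35% and 7.89%, and the telomere repeat letters TTAGGG in 7.02%, 8.59% and 8.92%. All motifs were searched on both strands, and these shares were not tested. The median GC content was 67.3% in the last 500 kb, 67.0% in the next 5 Mb and 62.7% on all autosomes.

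The rule for these peaks uses position alone, so their density, width and fold enrichment could be compared with those of the next 5 Mb on the same chromosome. The interval was neither richer nor poorer in peaks beyond the spread among chromosomes. Across the 22 chromosomes the median was 133 summits per Mb in the last 500 kb and 137.5 in the next 5 Mb. The density was higher at the end on 9 chromosomes and lower on 13, with a median ratio of 0.797 and a range from 0.120 to 2.27 (exact two-sided sign test with chromosomes as units, p = 0.523, Benjamini-Hochberg adjusted over 4 measures p = 0.698). The share of bases inside peaks was 12.2% against 11.0% as medians over chromosomes, while the median ratio was 0.895 (10 chromosomes higher, 12 lower, adjusted p = 0.832 in the same exact test). The 500 kb include the outermost stretch of each end, which held no peak. Counted from the end of the last peak, the medians were 158 and 137.4 summits per Mb, with a ratio of 0.965 (11 chromosomes higher, 11 lower).

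Peak size was also not separated by the test. The median over chromosomes of the median width was 531.75 bp at the ends and 515.5 bp in the next 5 Mb (ratio 1.04, range 0.631 to 1.52, 14 chromosomes higher and 8 lower, exact sign test, adjusted p = 0.698). For the median fold enrichment the values were 3.61 and 3.23 (ratio 1.05, range 0.685 to 2.27, 13 higher, 8 lower and 1 tied, exact sign test, adjusted p = 0.698). A p-value that misses the threshold of 0.05 does not show that the intervals are alike, and with chromosomes as units it describes this peak set and not a population of cultures. Because the cells were pooled, a peak open in few cells and a peak weakly open in many cannot be told apart.

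**Figure D1:**
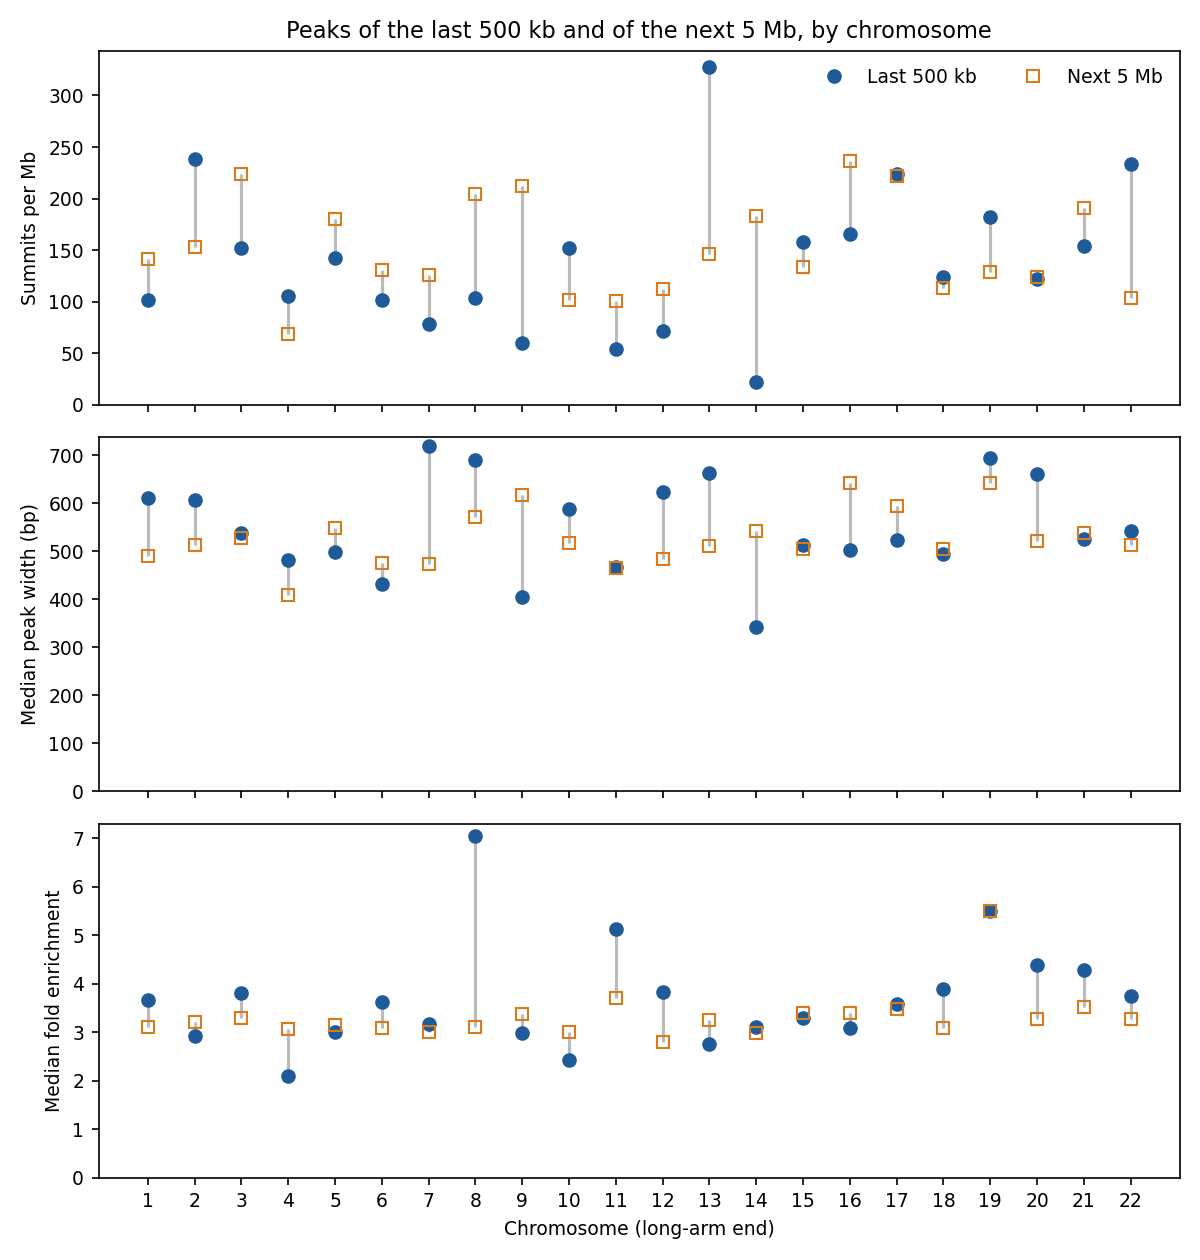
For each of the 22 autosomes, the panels show the number of summits per Mb, the median peak width in bp and the median fold enrichment, with filled circles for the last 500 kb of the long arm and open squares for the next 5 Mb. Grey lines join the pair of a chromosome. In the top panel the circle lies above the square on 9 chromosomes and below it on 13.

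As a pooled set, the 1538 peaks had a median width of 552 bp (quartiles 362 to 1043) and a median fold enrichment of 3.35 (quartiles 1.97 to 11.2, range 1.38 to 279). The next 5 Mb had medians of 530 bp and 3.27, the first 500 kb of the short arms 570.5 bp and 3.45, and all autosomes 483 bp and 3.46. Weak peaks under 2-fold were 26.5% of the peaks at the ends, 25.1% in the next 5 Mb and 21.2% on all autosomes. At the limit of the interval, the 167 peaks within the 50 kb inside it had medians of 3.45-fold and 577 bp, and the 220 peaks within the 50 kb outside 3.57-fold and 704.5 bp. The nearest member lay at 499.927 kb (chromosome 22, 1.75-fold) and the nearest peak left out at 500.075 kb (chromosome 18, 4.71-fold).

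The short arms gave a second set of chromosome ends. On the 17 chromosomes whose short arm held peaks in its first 500 kb, the long-arm density was higher on 7 and lower on 10 (median ratio 0.836). The median ratio was 1.03 for width, 0.993 for fold enrichment and 0.887 for the share of bases in peaks. In the exact two-sided sign test each of these 4 measures had an adjusted p of 1.

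The chromosomes differed widely among themselves. Chromosome 22 had the highest ratio of density (2.27, with 117 peaks), then chromosome 13 (2.24, 164 peaks) and chromosome 2 (1.55, 119 peaks). On chromosome 13, 70 of the 164 peaks (42.7%) lay inside a single gene, RASA3, which encodes a Ras GTPase-activating protein of blood cells. These 70 peaks had a median of 2.23-fold and reached 115-fold inside the gene, so the gene held many weak openings and a few strong ones. RASA3 had no summit at either end (at most 1 kb away), although a peak of 99.6-fold covered one end. Within the part of a gene that lies in the interval, the next highest numbers were 43 peaks in TBCD on chromosome 17, a tubulin folding cofactor, and 26 in PPP6R2 on chromosome 22, a regulatory subunit of a protein phosphatase.

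Chromosome 14 had the lowest ratio, 0.120, with 11 peaks. Its end holds the variable segments of the immunoglobulin heavy chain locus, which are rearranged and used in B cells. Of the 51 variable-segment genes and pseudogenes in the interval, 6 had a summit at most 1 kb from an end, and the highest of these was 6.95-fold. These segments were listed with 6 blood and immune coding genes of the interval. Of that list, 11 of 57 entries in the interval (19.3%) and 18 of 154 on all autosomes (11.7%) had such a summit. The 11 peaks of chromosome 14 ranged from 2.07-fold to 17.8-fold and from 239 to 577 bp, and the last of them lay 160.2 kb from the chromosome end. Chromosome 9 followed with 0.283 (30 peaks) and chromosome 8 with 0.508 (52 peaks). On chromosome 9 the neuronal calcium channel gene CACNA1B held 8 peaks, none above 5.48-fold, over 229.9 kb of the interval.

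By place, 174 of the peaks (11.3%) had a summit within 1 kb of the start or end of a coding gene, 657 (42.7%) lay elsewhere in coding genes, 306 (19.9%) in other annotated genes such as pseudogenes and long non-coding RNAs, and 401 (26.1%) between genes. In the next 5 Mb the shares were 8.38%, 54.2%, 10.2% and 27.2%. The interval thus held a larger share of peaks in non-coding genes and a smaller share in coding gene bodies; this difference was not tested. Fold enrichment followed the class. The median was 41.3 at coding gene ends (median width 1664.5 bp), 2.81 in gene bodies, 2.91 in other genes and 4.36 between genes.

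At coding gene ends the median of 41.3-fold compared with 16.7-fold in the next 5 Mb, 5.86-fold in the first 500 kb of the short arms and 20.7-fold on all autosomes. Away from zinc finger genes the median was 18.01-fold over 134 gene-end peaks, against 13.4-fold in the next 5 Mb and 5.64-fold on the short arms, and without chromosomes 12 and 19 it was 23.3-fold against 15.7-fold. Much of the difference thus went with zinc finger genes and these 2 chromosomes. It also did not run through all chromosomes: the median at gene ends was higher in the last 500 kb on 11 chromosomes and lower on 8 of the 19 that had such peaks. Where starts could be told from the other gene ends, on 21 chromosomes, 85 of 166 gene-end peaks lay at a start and had a median of 107-fold, and the other 81 had a median of 4.39-fold. In the next 5 Mb the 670 peaks at starts had a median of 70.5-fold and the 622 others 3.53-fold.

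**Figure D2:**
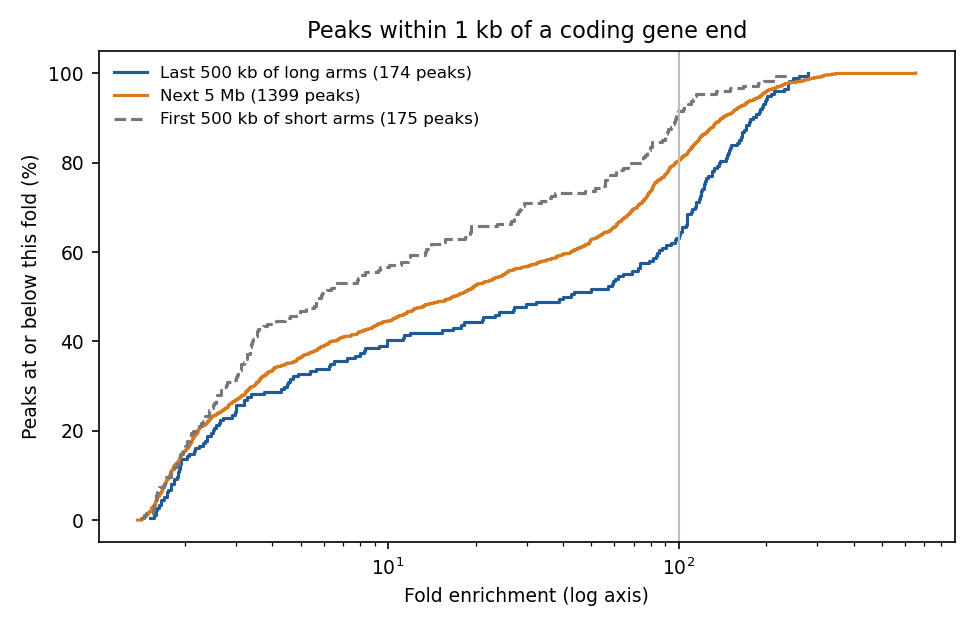
Cumulative share of peaks within 1 kb of a coding gene end (vertical axis, percent) at or below a given fold enrichment (horizontal log axis) for the last 500 kb of long arms (174 peaks), the next 5 Mb (1399) and the first 500 kb of short arms (175). The long-arm curve runs lowest near 100-fold, since 36.8% of its peaks exceed 100-fold against 19.7% in the next 5 Mb and 8.57% on the short arms.

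Strong peaks made up a larger share at the ends than in the neighbouring interval, without passing the threshold over chromosomes. Of the 1538 peaks, 86 exceeded 100-fold, 5.59% (exact 95% binomial interval 4.50% to 6.86%), where the share over all autosomal peaks was 2.15%. In the next 5 Mb 394 peaks did (2.36%, interval 2.14% to 2.60%), and in the first 500 kb of the short arms 35 (2.65%, interval 1.85% to 3.66%). These intervals cover counting error only, and neighbouring peaks are not independent. The share was higher at the end on 16 chromosomes and lower on 6, 3 of which (chromosomes 9, 11 and 14) had no peak above 100-fold (exact two-sided sign test with chromosomes as units, p = 0.0525, chosen after the values were seen and not adjusted). Against the short arms the share was higher on 11 and lower on 6 of 17 chromosomes.

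A few gene clusters held many of these 86 peaks. Chromosome 19 held 22 and chromosome 12 held 9, and 25 of the 86 lay at an end of a zinc finger gene. Of the 394 strong peaks of the next 5 Mb, chromosome 19 held 56 and chromosome 12 held 9, and 34 lay at such an end. Without chromosome 19 the share above 100-fold was 4.42% at the ends and 2.11% in the next 5 Mb, and without chromosomes 12 and 19 it was 3.90% and 2.12%. Among gene-end peaks away from zinc finger genes, 39 of 134 (29.1%) exceeded 100-fold, against 18.6% in the next 5 Mb and 7.14% on the short arms. Of the 86 peaks, 64 were at coding gene ends, 10 in gene bodies, 6 in other genes and 6 between genes. Gene ends also held most strong peaks elsewhere, 275 of 394 in the next 5 Mb and 4783 of 6470 on all autosomes.

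**Figure D3:**
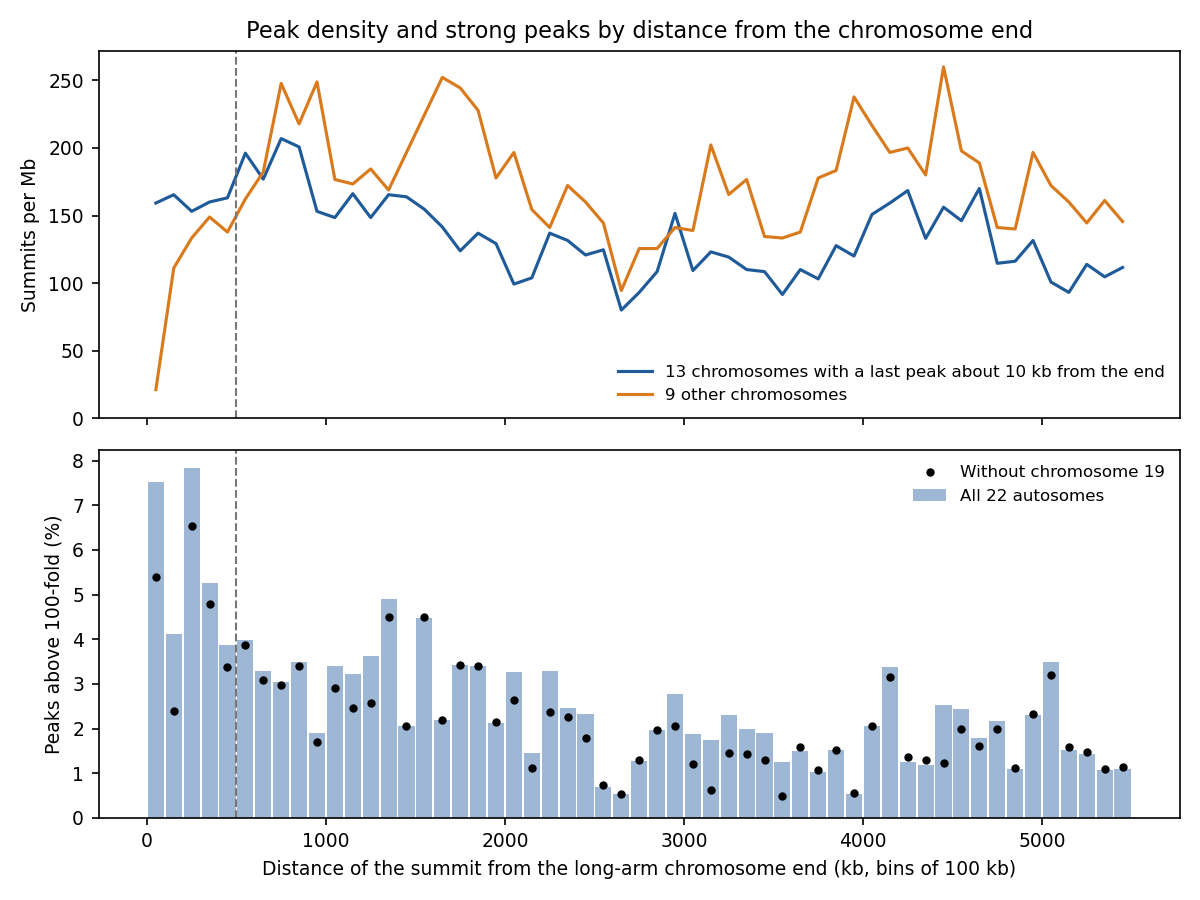
Summits per Mb (top) and the share of peaks above 100-fold (bottom, percent) in bins of 100 kb by distance from the long-arm end; the dashed line marks 500 kb. In the top panel blue stands for the 13 chromosomes whose last peak lies about 10 kb from the end and orange for the 9 others, whose values in the last 100 kb (159 and 21.1 summits per Mb) are set apart by that grouping itself. In the bottom panel bars are all 22 autosomes and points leave out chromosome 19; the outermost 5 bars range from 3.87% to 7.84%.

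By distance, the outermost 100 kb held 103 summits per Mb, and the 4 bins after it held 143, 145, 155 and 153. The 50 bins of the next 5 Mb ranged from 85.9 to 224 with a median of 150, so the outermost bin lay within their range. The outermost bin held 159 summits per Mb on the 13 chromosomes whose last peak lay about 10 kb from the end and 21.1 on the 9 whose last peak lay farther in. Since the grouping itself uses where peaks stop, this gap describes the grouping and is not a separate result. The share of peaks above 100-fold was 7.52%, 4.13%, 7.84%, 5.26% and 3.87% from the end inward, where the bins of the next 5 Mb ranged from 0.529% to 4.90% with a median of 2.09%.

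The outermost 10 kb of these 13 chromosomes in GRCh38 is a gap of unknown bases that stands for the telomere, and on 12 chromosomes the last peak ran across that 10 kb mark by 100 to 147 bp (median 131), while on chromosome 17 it stopped 8 bp short of it. These 13 peaks were 314 to 1429 bp wide, and their summits lay 41 to 470 bp from the mark (median 107). Because the peaks reach up to the first assembled base, their outer edge was not measured. No genome sequence was used here, so their sequences are not printed.

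The fold enrichment of the last peak was 141 on chromosome 12, 79.8 on chromosome 22, 71.9 on chromosome 1, 40.7 on chromosome 15 and 34.8 on chromosome 13. It was 18.1 on chromosome 21, 17.3 on chromosome 17, 16.5 on chromosome 2 and 16.3 on chromosome 19. The remaining values were 12.04 on chromosome 7, 11.2 on chromosome 10, 4.18 on chromosome 4 and 3.62 on chromosome 11. The median was thus 17.3, 11 of the 13 exceeded 10-fold, and each of the 13 was above 3.27, the pooled median of the next 5 Mb. On 8 of the 13 the nearest annotated gene was a copy of RPL23AP, a ribosomal protein pseudogene family that is repeated near chromosome ends. Whether reads at these peaks also match other chromosome ends was not tested.

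A second peak stood just inside the last one on 11 of the 13 chromosomes. Its edge lay 444 to 1595 bp inside the mark and 126 to 804 bp from the last peak. It was 271 to 669 bp wide and 1.96- to 76.5-fold enriched (median 14.9), and it was higher than the last peak on 4 chromosomes. With 2 further peaks, 26 in all lay within 3 kb of the mark, with a median of 16.4-fold, 20 of them above 10-fold and 1 above 100-fold. The highest second peak, 76.5-fold on chromosome 15, lay at DDX11L9, a transcribed pseudogene of a helicase family repeated at chromosome ends.

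On the other 9 chromosomes the last peak lay farther in. Its distance from the end was 62.8 to 72.8 kb on chromosomes 3, 5, 6, 8 and 9, 109.9 to 122.6 kb on chromosomes 16, 18 and 20, and 160.2 kb on chromosome 14. These last peaks ranged from 1.39-fold on chromosome 3 to 107-fold on chromosome 18. Similar distances recurred among the ends, and how much of each end is unassembled in GRCh38 was not tested. On the short arms the first peak crossed the 10 kb mark on 8 of 17 chromosomes, with fold enrichments of 43.2 to 190 (median 88.5), and 5 chromosomes had such a peak on both arms. On 2 more short arms the first peak began 38 bp (chromosome 9, 5.40-fold) and 98 bp (chromosome 16, 1.88-fold) inside the mark. With these the range over 10 short arms was 1.88- to 190-fold and the median 60.7.

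**Figure D4:**
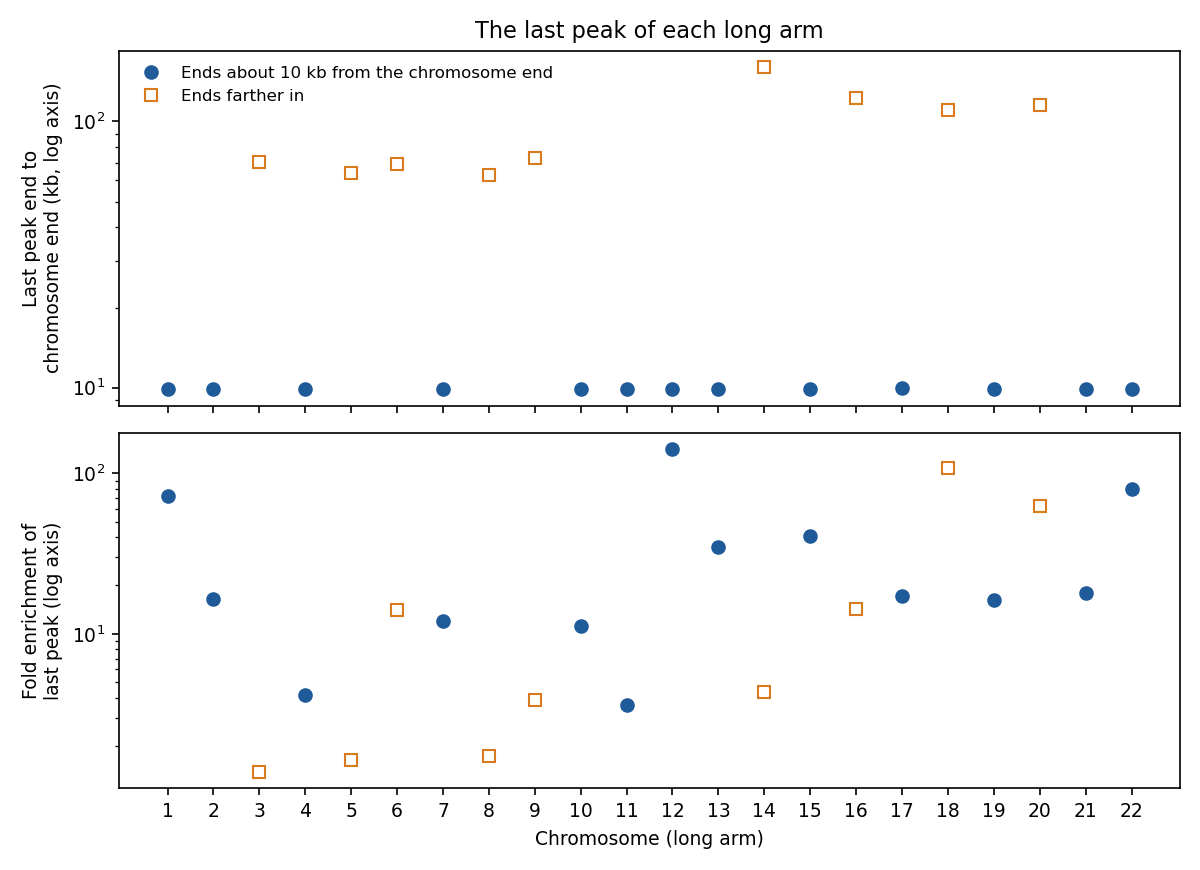
For each long arm, the distance from the last peak to the chromosome end in kb (top, log axis) and that peak's fold enrichment (bottom, log axis). Filled circles are the 13 chromosomes whose last peak ends about 10 kb from the chromosome end, open squares the 9 whose last peak ends 62.8 to 160.2 kb from it; the circles range from 3.62- to 141-fold and the squares from 1.39- to 107-fold.

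The interval held 177 coding genes, 16.1 per Mb against 11.2 per Mb in the next 5 Mb. Of these, 143 (80.8%) had a summit at an end, that is at most 1 kb from it, where the share was 83.1% in the next 5 Mb and 83.7% on all autosomes. Over 20 chromosomes the share was higher at the end on 10, lower on 9 and tied on 1 (exact two-sided sign test, p = 1, median difference 0.938 percentage points). The share of genes with any peak was thus near the autosomal background. The height differed more: the median of the highest fold per gene was 83.5 in the last 500 kb, 46.8 in the next 5 Mb and 46.9 on all autosomes, and 79 genes (44.6%) exceeded 100-fold, against 27.1% and 30.2%. Outside the zinc finger list the median was 49.8, against 39.8 in the next 5 Mb and 44.2 on all autosomes, and 52 of 142 genes (36.6%) exceeded 100-fold, against 26.4% and 29.9%. These heights were not tested, the 79 genes shared 65 peaks, and for 2 of them the peak lay just outside the 500 kb.

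Zinc finger genes were numerous and strongly marked. Of the 35 coding members, 32 had a summit at an end (91.4%), with a median over the 35 of 159-fold, and 27 exceeded 100-fold. The share with a summit was near that of zinc finger genes elsewhere, 90 of 98 in the next 5 Mb and 89.5% on all autosomes. The heights differed more and were not tested. The 98 zinc finger genes of the next 5 Mb had a median of 81.3-fold (35 above 100-fold) and the 593 on all autosomes 86.4-fold (39.5% above 100-fold). The highest were ZNF140 on chromosome 12 (279-fold), ZNF7 on chromosome 8 (260-fold), ZNF672 (248-fold) and TRIM28 on chromosome 19 (237-fold), which encodes the corepressor that many zinc finger proteins recruit. ZNF324B and ZNF34 had no summit at an end of their annotated span. ZNF324B had a 119-fold peak inside the gene, 31 bp from an annotated start, and a 119-fold peak with its summit at the ribosomal gene RPL8 covered one end of ZNF34. Chromosome 19 held 16 of the 35 genes and 13 of the 27 above 100-fold, and chromosome 12 held 7 and 6.

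Housekeeping and growth genes had strong peaks. Of 28 listed genes in the interval, 28 had a summit at an end, with a median of 124-fold, and 23 exceeded 100-fold. The highest were ING5, a subunit of histone acetyltransferase complexes (200-fold, with that summit just outside the 500 kb), CHFR (199-fold), and RBFA and the splicing factor gene TXNL4A, which share a 199-fold peak. The whole list had 40 genes, with a median of 124-fold and 82.5% above 100-fold, but it includes these 28 and is no independent background. Its 12 genes in the next 5 Mb had a median of 124-fold, and 10 of them exceeded 100-fold. Tissue-restricted genes were lower. Of 16 such genes 13 had a summit, with a median of 7.89-fold, and 1 exceeded 100-fold. The same list had a summit at 15 of 22 genes of the next 5 Mb (median 2.1-fold) and at 36 of 116 on all autosomes (31.0%, median 0). Both of these totals include the hair-related KRTAP family, which had no gene in the interval, so the gene sets compared are unlike. The gene above 100-fold was OPRL1, the nociceptin receptor (102-fold), whose start lies under the same peak as RGS19, a regulator of G-protein signalling. The next were the melanocortin receptor gene MC1R (49.8-fold), the synaptic scaffold gene SHANK3 (32.2-fold) and the sulfotransferase gene GAL3ST2 (27.1-fold). The liver enzyme gene CYP2E1 and the neural factor gene MYT1 had none. These values leave out peaks that cover an end with a summit farther than 1 kb away. Such a peak was 105-fold at S100B, whose highest counted value was 11.9-fold, and 49.8-fold at TUBB3, which had no counted summit.

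Of the 6 coding genes in the blood and immune list, 5 had a summit at an end, where 83.7% of all autosomal coding genes did. MZF1, a myeloid zinc finger gene, was at 208-fold, TYMP, which encodes thymidine phosphorylase, at 124-fold, and RGS19 at 102-fold. PDCD1, which encodes the T cell receptor PD-1, was at 8.25-fold and the vascular factor gene SOX18 at 1.74-fold. A 12.4-fold peak with its summit farther away covered an end of SOX18. RASA3 is the sixth.

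**Figure D5:**
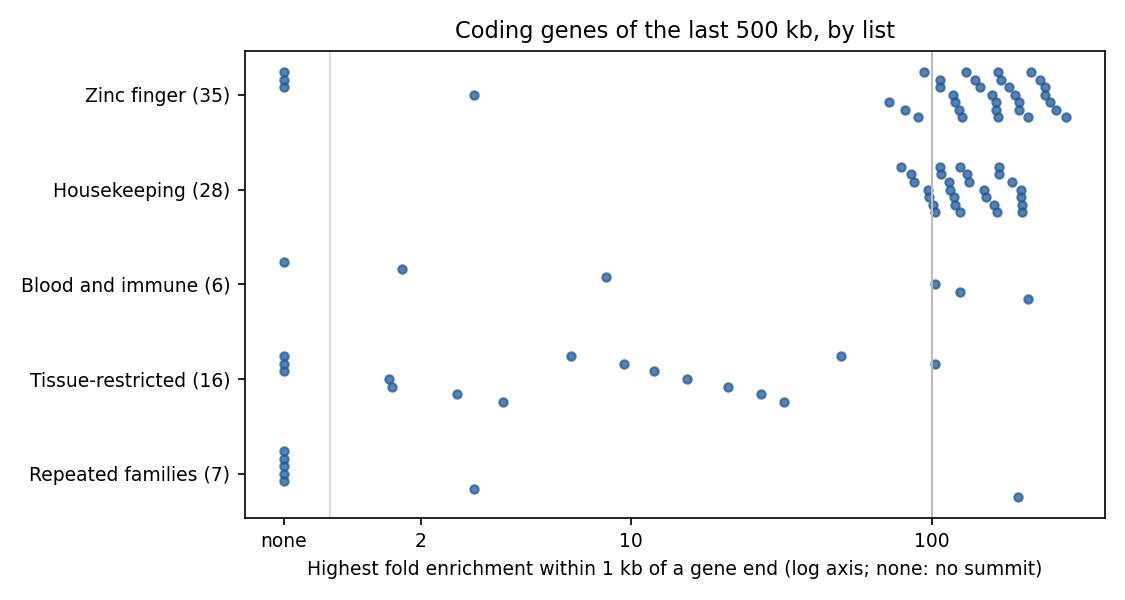
Highest fold enrichment within 1 kb of an end (horizontal log axis) for each coding gene of 5 lists that has an end in the last 500 kb; a point is a gene, points are spread vertically for legibility, and "none" marks genes without a summit. Zinc finger and housekeeping genes cluster near and above 100-fold, with medians of 159 and 124, while tissue-restricted genes spread from 1.57 to 102-fold.

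The strongest peak of each chromosome was at a coding gene end on 15 of 22 chromosomes. Beside those already named, they lay at TBP (167-fold, chromosome 6), the TATA-binding protein gene, MTG1 (165-fold, chromosome 10), a GTPase of mitochondrial ribosome assembly, CHAMP1 (151-fold, chromosome 13), a chromosome alignment factor, and TCF25 (185-fold, chromosome 16). Others were QTGAL (191-fold, chromosome 17), DRC9 (171-fold, chromosome 3), UCKL1 (180-fold, chromosome 20) and DIP2A (176-fold, chromosome 21). These 8 peaks were 1464 to 4643 bp wide. On 3 chromosomes no peak passed 100-fold: the strongest were 59.9-fold on chromosome 9, 18.8-fold on chromosome 11 and 17.8-fold on chromosome 14.

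Of the remaining 4 chromosomes, 2 had their strongest peak inside a coding gene near an annotated alternative start, 110 bp away in ING5 (124-fold, chromosome 2) and 50 bp away in the dynein gene DYNC2I1 (165-fold, chromosome 7). On chromosome 5 the strongest peak was intergenic, at chr5:181280345-181282417, 2073 bp wide and 236-fold, with the nearest coding gene end, that of the ubiquitin ligase gene TRIM52, 20568 bp away. On chromosome 15 it was a 153-fold peak of 2117 bp at WASH3P, a pseudogene of the WASH actin regulators that is repeated at chromosome ends, 29.7 kb from the end of the chromosome.

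The widest peak, chr22:50521716-50535448, spanned 13733 bp at 124-fold over TYMP, SCO2, a copper chaperone gene of respiratory complex assembly, and NCAPH2, a condensin subunit gene. On chromosome 20 a peak of 10782 bp (24.4-fold) lay in TCEA2, a transcription elongation factor gene, and one of 9151 bp (102-fold) at RGS19 and OPRL1. The ribosomal genes RACK1 on chromosome 5 (8783 bp, 107-fold) and RPL8 on chromosome 8 (8747 bp, 119-fold) completed the 5 widest. The median width of all peaks in the interval was 552 bp.

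Families that are repeated near telomeres were mostly weak. Of 74 annotated copies of 14 families in the interval, 44 had a summit at an end, with a median over the 74 of 1.82-fold. That is 59.5% of the copies, where 128 of 291 copies of these families on all autosomes had one (44.0%, median 0). The DUX4 family alone gave 23 of the 44, from 24 copies (95.8%, against 59.6% on all autosomes). The pooled share therefore does not describe the other families. The exceptions to the low heights were FRG1 and its divergent transcript (194-fold), WASH3P (153-fold), DDX11L9 (76.5-fold), RPL23AP82 (31.0-fold) and CICP10 (24.1-fold). Of the 12 RPL23AP copies 3 had a summit (25%), where 33.0% of 94 did on all autosomes. Of the 9 copies of the olfactory receptor family OR4F 5 did (55.6%, against 58.8% of 17). None of the 3 copies of FRG2 or the 4 of WBP1LP did, where 0 of 13 and 1 of 12 did on all autosomes. These counts were near the shares of the same families on all autosomes, which include the copies of the interval. The copies of a family share sequence, and the handling of reads that match several places is not given in the sources used here, so values at single copies are uncertain.

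Copies of the DUX4 family carried many weak peaks. Of 24 copies 23 had a summit, where 28 of 47 on all autosomes did (the 24 included), but the median was 1.90-fold and the highest 5.97-fold. In 3 stretches the copies stand in tandem at a spacing of 3293 to 3310 bp, as D4Z4 repeats. There, windows of 1 kb around both ends of a copy cover most of a repeat, and neighbouring copies can share a peak. A summit at an end was therefore likely wherever the peaks were dense, and the count of 23 says little by itself. From DUX4L8 to DUX4L2 on chromosome 4, a stretch of 24.4 kb with 8 copies, there were 22 peaks, 2.75 per copy, from 1.47- to 3.30-fold. From DUX4L10 to DUX4L15 on chromosome 10 there were 16 peaks at 6 copies, from 1.43- to 2.23-fold, and from DUX4L25 to DUX4L20 there were 10 peaks at 6 copies, from 1.56- to 2.45-fold. These stretches were chosen after their values were seen.

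Within these stretches the density was 554 to 903 summits per Mb, and 6 of the 48 peaks reached 2-fold. They made up 3.12% of all peaks in the interval. Without these peaks the density ratio to the next 5 Mb was 0.899 on chromosome 4, where it had been 1.54. On chromosome 10 it was 0.978, where it had been 1.49. The bases of the stretches stayed in the 500 kb, which lowers both ratios. The value of chromosome 10, close to equality, therefore does not place it below its neighbouring interval. The median fold without these peaks was 4.72 on chromosome 4, where it had been 2.09, and 4.70 on chromosome 10, where it had been 2.42. Between the repeats of chromosome 4 and the chromosome end lay stronger peaks, such as chr4:190122297-190123223 (102-fold, 927 bp) and chr4:190176344-190180325 (52.1-fold, 3982 bp), the latter inside the annotated DUX4 gene.

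Of 17 microRNA hairpins in the RefSeq gene table of the interval, 7 lay under a peak, which exceeded 100-fold at 6 of them and was 1.96-fold at MIR10394. Hairpins under peaks were not counted in other intervals, so these counts are a description and not a result about chromosome ends. MIR3124 lay at chr1:248826377-248826443 under a peak of 2028 bp and 148-fold, MIR4638 at chr5:181222566-181222633 under one of 3970 bp and 201-fold, and MIR4754 at chr19:58386770-58386858 under one of 2792 bp and 147-fold. MIR6807 lay at chr19:58550285-58550376 under a peak of 7431 bp and 107-fold. MIR6813 and MIR6850 lay under peaks already described, the 102-fold peak at RGS19 and the 119-fold peak at RPL8. The mature sequences below, from RefSeq on GRCh38.p14, identify 5 of these hairpins, with the 5p arm where the table names 2 arms and the seed (bases 2 to 8) in capitals. The 5 seeds differ from one another.

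hsa-miR-3124-5p: uUCGCGGGcgaaggcaaaguc

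hsa-miR-4638-5p: aCUCGGCUgcgguggacaagu

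hsa-miR-4754: aUGCGGACcuggguuagcggagu

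hsa-miR-6807-5p: gUGAGCCAguggaauggagagg

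hsa-miR-6813-5p: cAGGGGCUgggguuucagguucu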

How the data were processed

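The sources name 35 ATAC-seq libraries from H1-derived progenitors, made with paired reads. Per the submitters' processing notes, the tools were Trim Galore (0.6.5), Bowtie2 (version 2.2.8) and Picard (version 2.2.4). The deposited peak names carry MACS 2.1.0 and GENCODE 36. How reads were filtered or shifted and which libraries were pooled are not given in the sources used here, and pooling makes the number of weak peaks depend on the summed depth.

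Beside positions, the authors' list holds a deposited fold enrichment (a linear ratio to background), deposited −log10 p and −log10 q values, and a deposited score. Fold enrichment served for heights and −log10 p for the stronger 50% of peaks. The score and q were not used. The list has no column for any library (0 such columns).

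Chromosome lengths of GRCh38 came from GenomeInfoDb 1.38.1, genes and promoters from RefSeq tables of GRCh38.p14 (19126 autosomal coding genes). Chromosome 8 has no promoters there, so starts were counted on 21 chromosomes. Intervals were 500 kb and the next 5 Mb, and a gene-end peak has its summit within 1 kb of either end of a coding gene. Heights above 100-fold were called strong. Intervals were compared by exact two-sided sign tests over chromosomes with Benjamini-Hochberg adjustment (threshold 0.05), in Python 3.11.15 with numpy 2.4.6, pandas 2.3.3, scipy 1.17.1 and matplotlib 3.10.9. The tests were tested on simulated data. Named items are, per chromosome, the strongest and the last peak, the 5 widest, the 3 highest and 3 lowest density ratios, and per list up to 4 genes with the highest fold and 2 without a summit. RASA3, TBCD, PPP6R2, CACNA1B, CICP10, the D4Z4 stretches and the peaks beyond them were named after their values were seen. The members and lists were chosen with earlier results of these data known.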

Additional observations from a re-analysis of the deposited data

How the results depend on the processing

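Over 56 alternatives for the 9 tested results, 0 adjusted p-values of the exact sign or signed-rank tests passed the threshold of 0.05. The lowest, 0.0676 (unadjusted 0.0169), was for median fold enrichment among the more significant 50% of the peaks. In 47 alternatives the direction was the same, and in 9 it reversed. A terminal interval of 250 kb gave a width ratio of 0.962, and one of 1 Mb gave ratios of 1.16 for density, 0.976 for fold enrichment and 1.18 for the share of bases in peaks. That share had a ratio of 1.11 against the next 10 Mb and of 1.003 when the interval was counted from the last peak. Against the short arms, the more significant 50% of the peaks gave a fold ratio of 1.18. The difference in coding genes with a summit was −6.76 percentage points with a window of 0.5 kb and −0.698 with an interval of 1 Mb.

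The share of peaks above 100-fold was tried under alternatives chosen after seeing the data: 4.42% without chromosome 19, 3.90% without chromosomes 12 and 19 and 4.16% with an interval of 1 Mb, where the next 5 Mb gave 2.11% and 2.12% without those chromosomes. The cause of these shifts was not tested. No paired analysis was possible because the list holds no column for any library, so the replicate numbers of the labels tie to no value.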

Other observations

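The limits are those of a single pooled list. It gives no spread between cultures, so every comparison is between regions of 1 peak set, and chromosomes are its only units. The summed depth behind the peaks is unknown and so is the number of libraries that show a given peak. How reads matching several chromosome ends were handled is not given in the sources used here, which bears most on the last 100 kb, the D4Z4 stretches and the repeated families. The outermost bases of GRCh38 are not assembled. Gene ends were taken from 1 span per gene, so alternative starts count as gene bodies.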
